A study of Mus musculus with 6 samples.

Results

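Ccl17, Ccl22, Ccl1, Ccr4 and Ccr8 are the chemokine ligands and receptors best known for drawing regulatory T cells (Tregs) into tissue. The 5 genes were matched by symbol among the 32285 genes of the deposited matrices, and each symbol matched 1 gene. Their unique molecular identifiers (UMIs, 1 per captured RNA molecule) were followed in CD45+ cells sorted from B16-F10 melanomas, tumors of a mouse melanoma cell line grown in female C57BL/6 mice of 6 to 10 weeks of age. Both groups received αPD-1, an antibody that blocks the inhibitory T cell receptor PD-1, at 150 µg per mouse 3 times a week from day 7, and the αPD-1 + corin group also received corin at 200 µg per mouse daily from day 6. Corin inhibits the CoREST complex, which joins the histone deacetylases HDAC1 and HDAC2 with the demethylase LSD1. There were 3 samples per group. A treatment group held 10 mice. Which of them gave a given sample is not in the labels, so the p-values measure the spread between these samples. No untreated or corin-only tumor is part of the comparison, so every difference is one between αPD-1 alone and αPD-1 with corin.

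Chemokines are small secreted proteins that guide cells carrying the matching receptor. CCL17 and CCL22 are the ligands of CCR4, and CCL22 is a typical product of mature, migratory dendritic cells (DCs), which carry antigen from tissue to lymph nodes. CCL1 is the ligand of CCR8 and is made by activated lymphocytes, and mouse CCL8 also binds CCR8. CCR4 marks Tregs and type 2 helper T cells, and CCR8 is known as a receptor of Tregs inside tumors. Foxp3 is the transcription factor that defines Tregs.

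In the GRCm39 mouse genome, Ccl22 (chr8:95471226-95478327, plus strand) and Ccl17 (chr8:95534358-95538664, plus strand) lie 56.0 kb apart. Ccl1 lies on chromosome 11, with coding transcripts from 82067483 to 82070744 on the minus strand. Ccr4 (chr9:114319384-114333984, minus strand) and Ccr8 (chr9:119921180-119924263, plus strand) share a chromosome but are 5587.2 kb apart. The promoters of the neighbours Ccl17 and Ccl22 are shown because these genes had the most alike pattern over cell classes. Both sequences run 5′ to 3′ on the plus strand, are part of the 250 bases before the start that RefSeq annotates, leave out bases that GENCODE places in an exon, and were found once on chromosome 8 of GRCm39 (chr8:95536831-95537074 and chr8:95472062-95472217). The letters come from RefSeq promoters of build GRCm38.p6. Capitals mark the letters TTCNNNNGAA, the core that the factor STAT6 binds, and GGGACTT, part of the sites that NF-kB binds, each searched on both strands.
Ccl17: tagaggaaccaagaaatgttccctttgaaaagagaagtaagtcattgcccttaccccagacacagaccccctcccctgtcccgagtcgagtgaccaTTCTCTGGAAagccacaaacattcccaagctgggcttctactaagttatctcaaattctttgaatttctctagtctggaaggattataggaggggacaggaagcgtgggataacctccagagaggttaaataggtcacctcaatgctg
Ccl22: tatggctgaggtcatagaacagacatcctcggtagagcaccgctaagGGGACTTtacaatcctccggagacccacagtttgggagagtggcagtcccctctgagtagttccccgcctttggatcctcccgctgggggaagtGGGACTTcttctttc
TTCNNNNGAA occurred once in the Ccl17 window, 154 bases before the start, and in 5.85% of 32851 promoter windows of 250 bases. GGGACTT occurred 2 times in the Ccl22 window, 203 and 109 bases before the start, and in 4.65% of all windows. The windows of Ccl1, Ccr4 and Ccr8 held neither string.

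Of 52899 barcodes, 28865 passed the filters, with 3663 to 7860 cells per sample. The files held 52281422 to 84276739 UMIs per sample, and pairs of samples shared 10 to 32 barcodes. Classes were named from marker genes after clustering without the chemokine genes and the markers. The mature DC-like cluster held all 13 of its markers, and a UMI of Fscn1, the actin-bundling protein of mature DCs, was seen in 82.4% of its αPD-1 cells and 74.8% of its αPD-1 + corin cells. Tregs were taken as Foxp3+ T cells, that is, cells of the T clusters with a Foxp3 UMI and no Cd8a or Cd8b1 UMI. Of these, 74.7% and 89.6% in the 2 groups had a UMI of Ctla4, an inhibitory receptor that Tregs carry. A UMI of Il2ra, another Treg marker, was seen in 46.5% and 57.1% of them, and a UMI of Cd4 in 54.55% and 50.65%. Other CD4 T cells had a Cd4 UMI and none of Foxp3, Cd8a or Cd8b1, and CD8 T cells had a UMI of Cd8a or Cd8b1 and none of Cd4 or Foxp3. Ctla4 is not particular to Tregs here, since 25.3% and 50% of other CD4 T cells and 28.8% and 56% of CD8 T cells had a UMI of it. The αPD-1 samples held 37, 32 and 30 Foxp3+ T cells and the αPD-1 + corin samples 16, 48 and 13. Mature DC-like cells numbered 13, 10 and 28 against 84, 50 and 5, so αPD-1 + corin sample 3, with under 10, was left out of the mature DC fit. Although the samples were sorted for CD45, clusters with the markers of melanoma, fibroblast and endothelial cells were present. The 2 groups differed widely in other cells, with 52 neutrophil-like cells in all αPD-1 samples against 1753 with corin.

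With all samples pooled, Ccl17 and Ccl22 lay mainly in DCs and Ccl1 in lymphocytes. Mature DC-like cells were 0.658% of all cells kept, yet they held 57.2% of the 2172 Ccl22 UMIs and 37.2% of the 768 Ccl17 UMIs. A further 21.2% of Ccl17 lay in cDC2-like cells, the conventional DCs that prime CD4 T cells. Neutrophil-like cells held 13.5% of Ccl22 and 11.3% of Ccl17. A cluster found among the DCs but led by neutrophil markers held 12.2% of Ccl17. Not every sample followed the pooled order. In αPD-1 sample 2, the cDC1-, cDC2- and mature DC-like cells together held 7 of 44 Ccl22 UMIs and 2 of 7 Ccl17 UMIs. In αPD-1 + corin sample 3 they held 37 of 76 and 5 of 36. Ccl1 was a gene of T and natural killer (NK) cells, with 31.7% of its 1288 UMIs in CD8 T cells, 17.6% in other CD4 T cells and 8.23% in NK-like cells. A single cell of αPD-1 + corin sample 3 held 206 of the 227 Ccl1 UMIs in other CD4 T cells. A further 22.1% of Ccl1 lay in the clusters called mixed, which carried markers of T cells together with those of B cells or macrophages and were kept out of every test. Among the receptors, Foxp3+ T cells were 0.61% of all cells and held 23.4% of the 128 Ccr4 UMIs. They held 19.2% of the 736 Ccr8 UMIs, beside 23.0% in the mixed clusters, 12.9% in CD8 T cells and 8.02% in neutrophil-like cells. In αPD-1 + corin sample 2, neutrophil-like cells held 56 Ccr8 UMIs beside 55 in Foxp3+ T cells.

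**Figure D1:**
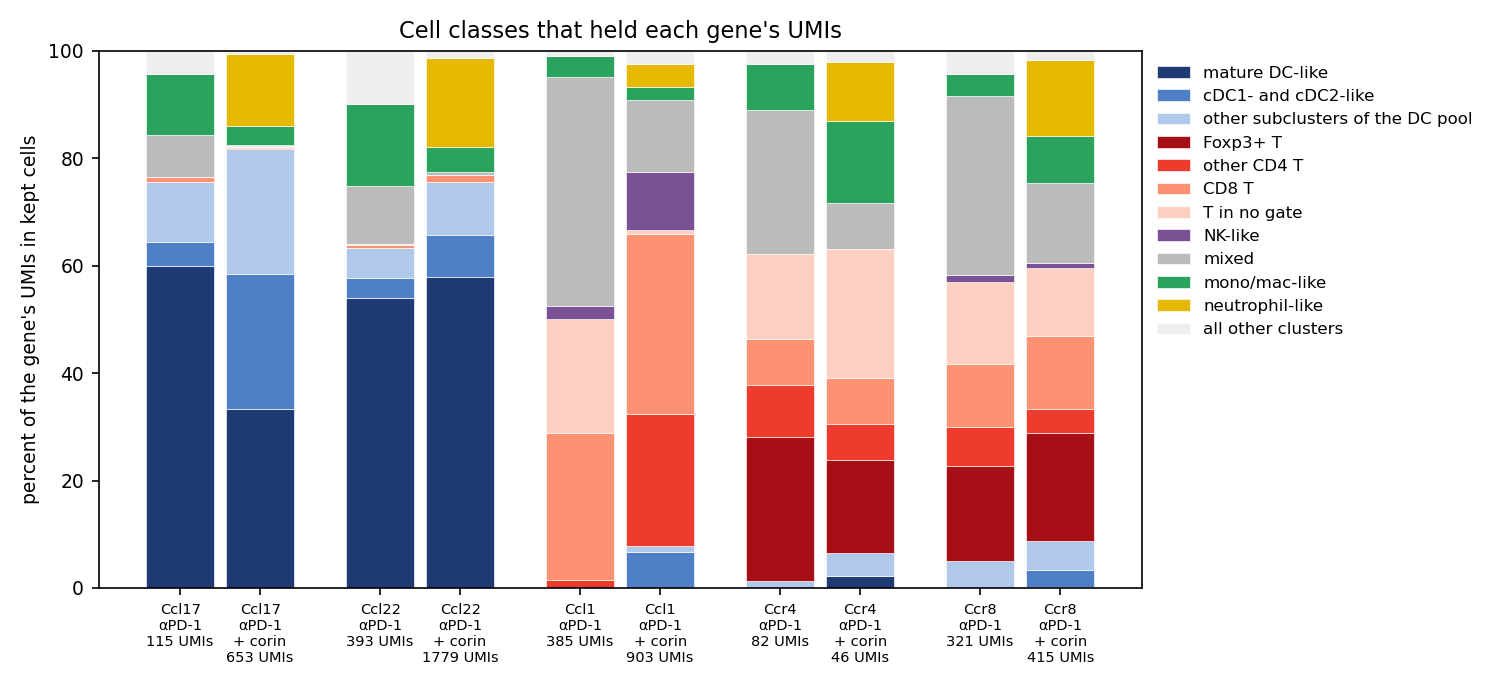
Stacked bars give, for each gene and treatment, the percentage of the gene's UMIs in kept cells that lay in each cell class, with the number of UMIs under each bar. Mature DC-like cells are the largest named part of Ccl22 in both groups, with 53.9% in αPD-1 and 57.9% in αPD-1 + corin, while neutrophil-like cells hold a part of it with corin alone.

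Ccl22 was present in the mature DC-like cells of every sample. Its level in mature DC-like cells was 884, 164 and 1135 UMIs of the gene per 1000000 UMIs of the class (CPM) in the 3 αPD-1 samples. The 3 αPD-1 + corin samples gave 1802, 1994 and, from only 5 cells, 573 CPM. Among the samples with 10 or more cells, both αPD-1 + corin samples lay above all 3 αPD-1 samples. The fitted difference was a log2 fold change of 1.29 ± 0.46 (SE, n = 3 against 2), with an adjusted p of 0.228 in edgeR's quasi-likelihood test with Benjamini-Hochberg adjustment, and was not past the threshold of 0.05. In this fit 1.79% of 2126 genes passed it. The share of mature DC-like cells with a Ccl22 UMI was 61.5% (95% exact interval 31.6 to 86.1), 40.0% (12.2 to 73.8) and 67.9% (47.7 to 84.1) in αPD-1. It was 78.6% (68.3 to 86.8), 78.0% (64.0 to 88.5) and 60.0% (14.7 to 94.7) in αPD-1 + corin. Intervals and upper limits here and below cover counting error only. After each cell was thinned to 1000 UMIs the shares averaged 37.1% ± 22.8 and 48.4% ± 20.6 (SD, n = 3 each), and the groups overlapped. Monocyte/macrophage-like cells, with sample medians of 3049 to 4588 UMIs, gave a background of at most 0.413% of cells with a Ccl22 UMI at the same thinned depth.

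Markers of another cell type moved with the treatment in the same cells. The summed level of 9 neutrophil markers in mature DC-like cells was 108, 46.9 and 102 CPM in αPD-1 and 4738, 4840 and 108 CPM in αPD-1 + corin. The 9 B cell markers went the other way, with 1326, 540 and 397 CPM in αPD-1 and 158, 8.35 and 0 CPM in αPD-1 + corin. S100a8, which defines neutrophils, was at 0 in the 3 αPD-1 samples and in αPD-1 + corin sample 3, and all 9 neutrophil markers were detected in the other 2. Their part in the Ccl22 values was not tested. Ccl22 was also measured without every cell that carried 2 or more UMIs of T, B, neutrophil or melanoma markers. That left 97 of 190 cells and 607 of 1243 Ccl22 UMIs. Only αPD-1 sample 3 and αPD-1 + corin samples 1 and 2 kept 10 or more cells, so αPD-1 rests on 1 sample there. The difference in these cells was 1.19 on the log2 scale. With all cells of the class, the fit with no filter on low counts passed (1.52, edgeR adjusted p = 3.1e-05). Without αPD-1 + corin sample 1 the difference was 1.41, where αPD-1 + corin rests on sample 2 alone. Of the alternative fits of Ccl22 in mature DC-like cells, 4 passed the threshold and 13, like the main fit, did not.

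Ccl17 went with Ccl22 over single cells and was far more uneven. In mature DC-like cells it was at 507, 23.5 and 194 CPM in αPD-1 and at 322, 505 and 0 CPM in αPD-1 + corin, where the 0 comes from 5 cells and allows up to 107 CPM. The groups overlapped, and the log2 fold change of 0.63 ± 0.58 did not pass the edgeR test (adjusted p = 0.647). With a sample left out it ranged from 0.25, without αPD-1 sample 2, to 1.58, without αPD-1 sample 1. Single cells decided several of these values. Of the 47 Ccl17 UMIs in αPD-1 sample 1, 44 came from 1 cell, and 56 of the 121 in αPD-1 + corin sample 2 came from another. In cDC2-like cells Ccl17 was at 0, 4.87 and 15.5 CPM in αPD-1 and at 85.7, 224 and 0 CPM in αPD-1 + corin, and 1 cell of αPD-1 + corin sample 2 gave 74 of the 163 UMIs in that class. Of 41 mature DC-like cells with a Ccl17 UMI, 40 also had a Ccl22 UMI (97.6%), against 66.4% of the cells with no Ccl17 UMI. The first had a median of 4499 UMIs in all and the second 3188.

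Over all DCs (cDC1-like, cDC2-like and mature DC-like cells), Ccl22 was at 163, 14.6 and 193 CPM in αPD-1 and 307, 432 and 42.4 CPM in αPD-1 + corin. Ccl17 was at 92.3, 4.18 and 35.3 CPM in αPD-1 and 79.7, 184 and 5.74 CPM in αPD-1 + corin. In both, αPD-1 + corin sample 3 lay inside the αPD-1 range. That sample also had the fewest neutrophil marker UMIs among the DCs with corin, with 174 CPM beside 2605 and 2600, while the αPD-1 samples had 158 to 515 CPM. The log2 fold changes were 1.13 ± 0.73 for Ccl22 (edgeR adjusted p = 0.634) and 1.13 ± 0.85 for Ccl17 (0.698), in a fit where 0.0661% of 7564 genes passed. With a sample left out, Ccl22 ranged from 0.59, without αPD-1 + corin sample 2, to 1.63, without αPD-1 sample 3, and Ccl17 from 0.20, without αPD-1 + corin sample 2, to 2.14, without αPD-1 sample 1. With no filter on low counts both passed (1.18, 4.7e-09 and 1.19, 1.4e-05). Mature cells made up 17.0% ± 4.1 of DCs in αPD-1 and 15.2% ± 11.3 in αPD-1 + corin (p = 0.9, two-sided exact permutation test, smallest possible 0.1). Ccl1 was not tested in DCs, since its 60 UMIs came from 4 cDC1-like cells of αPD-1 + corin sample 1. Mature DC-like cells held no Ccl1 UMI in any sample.

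**Figure D2:**
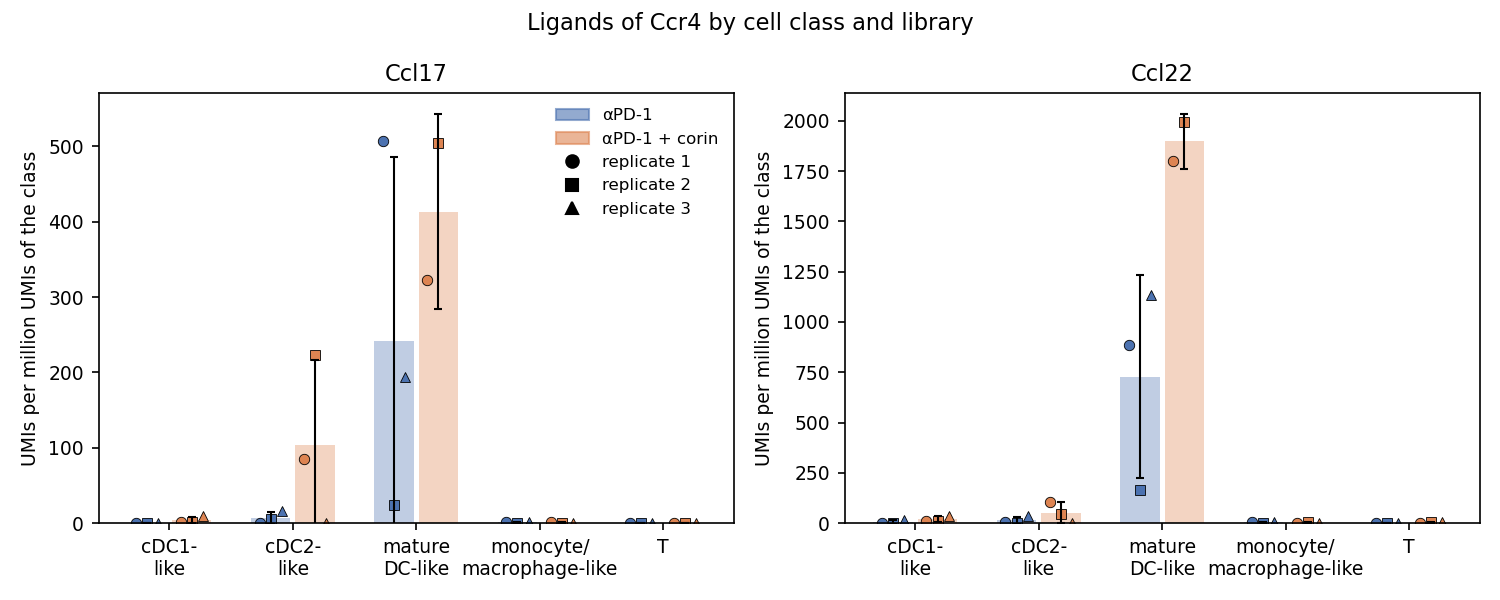
Points give the level of Ccl17 (left) and Ccl22 (right) in CPM for each sample with 10 or more cells of the class, and bars give the mean with the SD. By group mean the mature DC-like cells stand above the other classes for both genes, and their αPD-1 + corin points for Ccl22 are 1802 and 1994. Single points for Ccl17 overlap. Those of cDC2-like cells in αPD-1 + corin samples 1 and 2 (85.7 and 224) lie above that of mature DC-like cells in αPD-1 sample 2 (23.5).

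Among the ligands, Ccl1 in T cells was the one that passed the test between treatments. It was at 9.93, 28.5 and 52.8 CPM in αPD-1 and at 45.3, 75.8 and 90.4 CPM in αPD-1 + corin, and αPD-1 sample 3 lay above αPD-1 + corin sample 1, so the groups overlapped. Ccl1 rose by a log2 fold change of 1.48 ± 0.36 (n = 3 each, adjusted p = 0.0122 in edgeR). In the T cell fit 18.5% of 9841 genes passed, so a call is common there. The call was lost in DESeq2 (1.31, adjusted p = 0.244), without αPD-1 + corin sample 3 (1.23, 0.0572 in edgeR), and without 1 cell of that sample that held 206 of the 725 UMIs (0.99, 0.0814 in edgeR). Ccl17 and Ccl22 did not pass the filter on low counts in T cells, where 3812 cells held 4 and 25 of their UMIs.

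Few T cells held Ccl1. It was seen in 79 of 3812 T cells, and the 3 cells with most UMIs held 46.5% of the total. In CD8 T cells its level was 19.4, 21.9 and 50.8 CPM in αPD-1 and 91.0, 117 and 52.8 CPM in αPD-1 + corin, with every αPD-1 + corin sample above every αPD-1 sample. That order rests on few cells, since 1 cell held 96 of the 199 UMIs of αPD-1 + corin sample 3 and another held 14 of the 15 of sample 1. Fitted in CD8 T cells alone, a choice made after the data were seen, Ccl1 rose by a log2 fold change of 1.48 (edgeR adjusted p = 0.0212), and the fit without these cells was not run. In other CD4 T cells Ccl1 was at 0, 0 and 41.5 CPM in αPD-1 and at 0, 121 and 2813 CPM in αPD-1 + corin, the last mostly from the cell with 206 UMIs. Foxp3+ T cells held 1 Ccl1 UMI in 176 cells. The 1362 T cells in none of these gates went the other way by mean. They had 2.54, 56.4 and 73.3 CPM in αPD-1 and 0, 7.38 and 6.94 CPM in αPD-1 + corin, and the groups overlapped. There 1 cell held 21 of the 46 UMIs of αPD-1 sample 2. At a thinned depth of 1000 UMIs, 0.858% ± 0.290 of T cells in αPD-1 and 1.40% ± 0.89 in αPD-1 + corin had a Ccl1 UMI (exact permutation p = 0.4, n = 3 each). T cells with Ccl1 had a median of 6259 UMIs in all and those without 2331. Of the T cells with Ccl1, 19.0% also held a UMI of its receptor Ccr8, against 5.57% of those without it, in cells of that same difference in depth.

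Markers of other cells differed between the groups in T cells, with those of neutrophils and NK cells higher and those of B cells lower in αPD-1 + corin. The 9 neutrophil markers summed to 54.6 to 79.9 CPM in αPD-1 and 122 to 449 CPM in αPD-1 + corin, the 8 NK markers to 168 to 218 and 227 to 600 CPM, and the 9 B cell markers to 137 to 282 and 5.42 to 42.4 CPM. Ncr1, which defines NK cells, and Cd79a, which defines B cells, were above 0 in all 6 samples, and S100a8 was at 0 in αPD-1 sample 3 only. Their part in the Ccl1 values was not tested. Without T cells that carried 2 or more UMIs of B cell, macrophage, neutrophil or DC markers, 1511 of 3812 cells and 27 of 725 Ccl1 UMIs were left. A cut at a set number of UMIs leaves out deep cells more readily, and T cells with Ccl1 had a median of 6259 UMIs against 2331 without it. The part of depth in this loss was not tested. In the cells left the rise with corin was not seen. Ccl1 was at 2.49, 5.29 and 32.5 CPM in αPD-1 and at 0, 0 and 3.87 CPM in αPD-1 + corin. Too few molecules remained for a test.

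**Figure D3:**
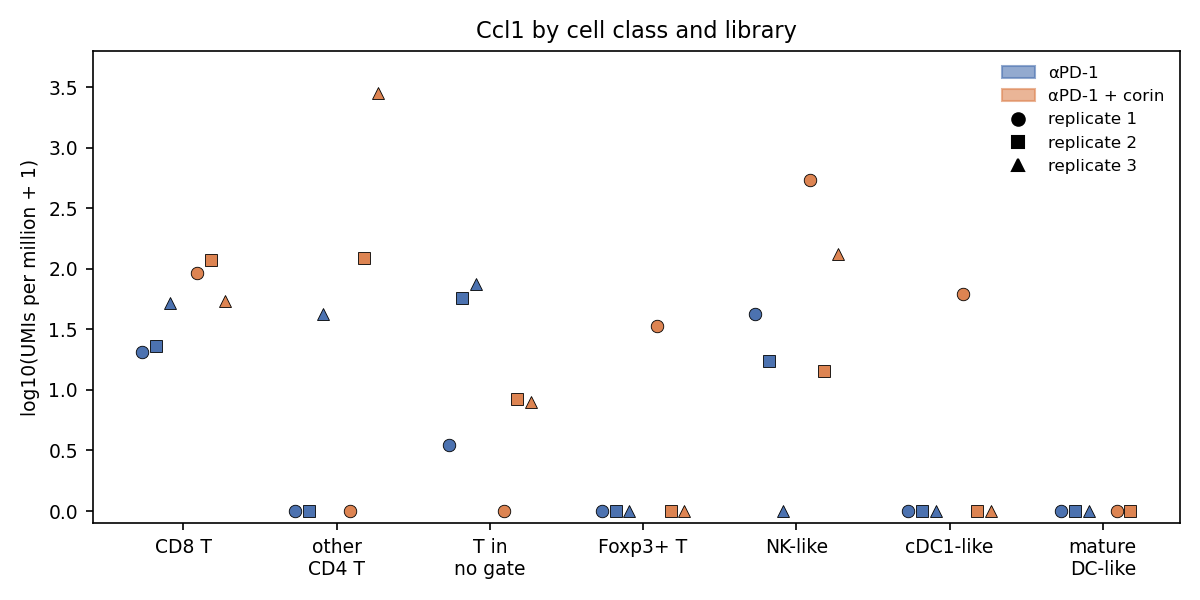
Points give log10 of the Ccl1 level plus 1 (CPM) in each sample for 7 cell classes, colored by treatment and shaped by replicate. Only samples with 10 or more cells of a class are shown. Mature DC-like cells lie at 0 in the 5 samples shown, and the point farthest up is other CD4 T cells of αPD-1 + corin sample 3, at 2813 CPM.

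Ccr8, the receptor of Ccl1, was higher in Foxp3+ T cells than in other CD4 and CD8 T cells in each sample. Its level in Foxp3+ T cells was 156, 109.5 and 132 CPM in αPD-1, and 429, 267 and 326 CPM in αPD-1 + corin, so all 3 αPD-1 + corin samples lay above all 3 αPD-1 samples. The fitted log2 fold change was 1.16 ± 0.28 (SE, 95% interval 0.61 to 1.71). The edgeR adjusted p was 0.0821, so Ccr8 did not pass the threshold, in a fit where 0.525% of 2477 genes did. The unadjusted p was 0.000564 (edgeR). These values rest on few molecules, namely 26, 16 and 15 UMIs in αPD-1 and 13, 55 and 16 in αPD-1 + corin. No single cell held more than 8. Foxp3, on which the gate rests, was itself at 427, 486 and 438 CPM in αPD-1 and at 825, 679 and 469 CPM in αPD-1 + corin, and its part in the Ccr8 values was not tested.

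The share of Foxp3+ T cells with a Ccr8 UMI gave the same order of groups. It was 27.0% (95% exact interval 13.8 to 44.1), 21.9% (9.28 to 40.0) and 30.0% (14.7 to 49.4) in αPD-1, and 43.8% (19.8 to 70.1), 45.8% (31.4 to 60.8) and 69.2% (38.6 to 90.9) in αPD-1 + corin. After thinning to 1000 UMIs per cell, the shares were 8.11%, 6.25% and 3.33% against 25%, 27.1% and 46.2%. Their means of 5.90% ± 2.41 and 32.8% ± 11.7 differed by 26.9 percentage points (exact permutation p = 0.1, the smallest that 3 against 3 allows, adjusted p = 0.6 over 12 shares compared). B cell-like and monocyte/macrophage-like cells gave a thinned background of at most 0.273% in an αPD-1 sample and at most 2.44% in an αPD-1 + corin sample, the latter from 1 of 41 B cell-like cells of sample 1.

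Macrophage markers in Foxp3+ T cells summed to 168, 75.3 and 61.4 CPM in αPD-1 and 330, 116 and 265 CPM in αPD-1 + corin, with 4 to 8 of 13 detected and C1qa at 0 in 4 of the 6 samples. B cell markers went the other way, with 114 to 312 CPM against 0 to 20.4 CPM. Their part in the Ccr8 values was not tested. Without the cells that held 2 or more UMIs of B cell, macrophage, neutrophil or DC markers, 70 of 176 Foxp3+ T cells and 26 of 141 Ccr8 UMIs were left, and Ccr8 was at 99.7, 0 and 83.1 CPM in αPD-1 and 606, 89.0 and 427 CPM in αPD-1 + corin, where the groups overlapped. Too few molecules remained for a test.

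In other CD4 T cells Ccr8 was at 55.5, 4.30 and 62.3 CPM in αPD-1 and at 235, 60.6 and 106 CPM in αPD-1 + corin, and the groups overlapped. Neither Ccr8 nor Ccr4 passed the filter on low counts there, in a fit where 7.22% of 2037 genes passed the threshold. The thinned shares with a Ccr8 UMI were 0.906% ± 0.843 and 9.44% ± 6.74 and did not overlap (exact permutation p = 0.1), but the αPD-1 + corin samples rest on 12, 24 and 30 cells. In CD8 T cells Ccr8 was at 10.7, 8.21 and 13.5 CPM in αPD-1 and at 0, 26.2 and 9.82 CPM in αPD-1 + corin. The log2 fold change of 0.42 ± 0.47 did not pass (edgeR adjusted p = 0.663, 6.53% of 8205 genes called). The difference between treatments in Foxp3+ T cells was not shown to differ from that in other CD4 T cells (interaction -0.15 ± 0.55 on the log2 scale, edgeR adjusted p = 0.948, 0.432% of genes called) or from that in CD8 T cells (0.68 ± 0.61, 0.734, 1.09% called).

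Ccr4, the receptor of Ccl17 and Ccl22, was sparse, with 30 UMIs in all Foxp3+ T cells. It was at 54.1, 54.7 and 43.8 CPM in αPD-1 and at 0, 24.2 and 61.1 CPM in αPD-1 + corin, the last from 3 UMIs, and the 0 in 16 cells allows up to 99.0 CPM. The groups overlapped, and Ccr4 did not pass the filter for a test between treatments within any T cell class. It entered the comparison of the treatment difference between Foxp3+ and CD8 T cells, where the interaction was 1.09 ± 1.95 on the log2 scale (edgeR adjusted p = 0.897). The share of Foxp3+ T cells with a Ccr4 UMI averaged 15.2% ± 3.08 and 7.21% ± 7.74 before thinning, and 7.91% ± 2.52 and 3.26% ± 3.98 after it (exact permutation p = 0.3). In other CD4 T cells 11 Ccr4 UMIs were seen in 313 cells, and in CD8 T cells 11 in 1961. In single Foxp3+ T cells, 35% of the 20 cells with Ccr4 and 36.5% of the cells without it had a Ccr8 UMI.

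**Figure D4:**
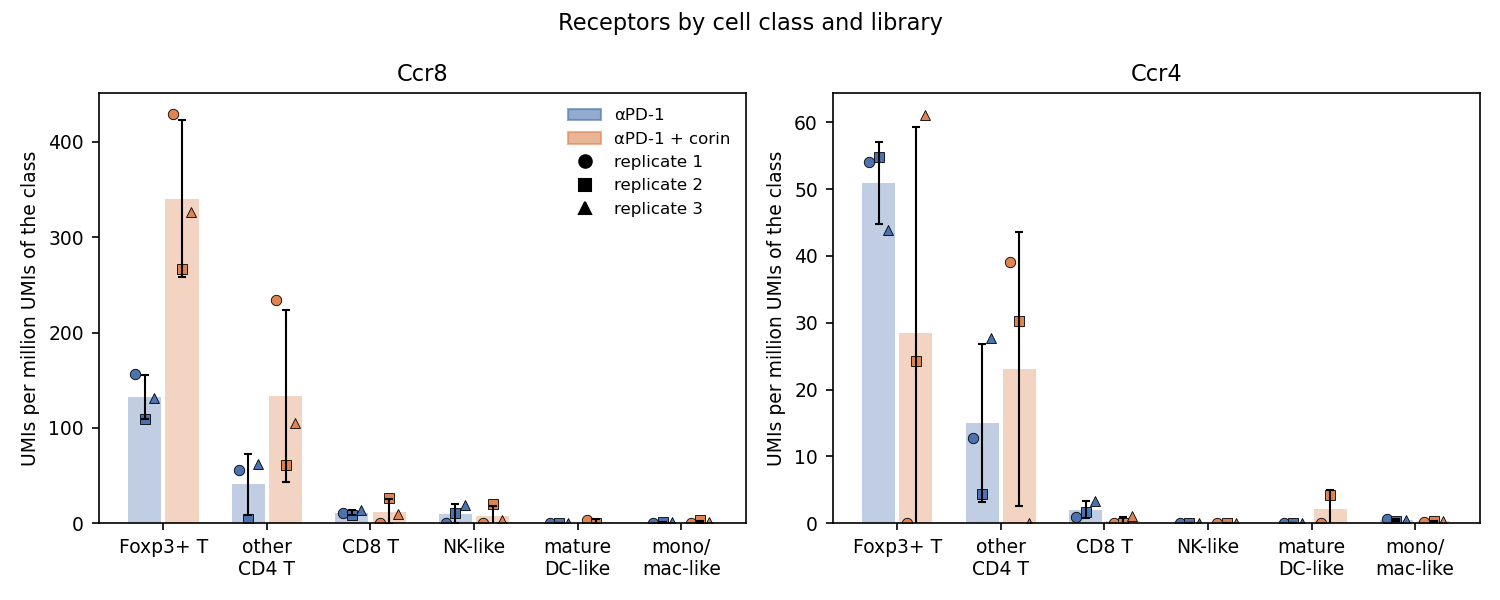
Points give the level of Ccr8 (left) and Ccr4 (right) in CPM for each sample with 10 or more cells, and bars give the mean with the SD. For Ccr8 in Foxp3+ T cells the αPD-1 + corin points of 267 to 429 lie above the αPD-1 points of 109.5 to 156, while for Ccr4 the groups overlap.

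Both receptors were compared between T cell classes within samples, with the sample as a block. Ccr8 was higher in Foxp3+ T cells than in other CD4 T cells by a log2 fold change of 1.63 ± 0.30 (edgeR adjusted p = 0.000644, 11.7% of 3244 genes called), and higher in 6 of 6 samples. Against CD8 T cells it was higher by 3.87 ± 0.31, again in every sample. In CD8 T cells Ccr8 was at 0 to 26.2 CPM, and in this fit it passed the filter only through Foxp3+ T cells. That difference is therefore a description and not a test. Ccr4 averaged 39.7 CPM in Foxp3+ T cells and 1.18 CPM in CD8 T cells over the 6 samples. Ccr4 also passed the filter only through its level in Foxp3+ T cells, so its fitted difference of 4.90 ± 0.93 on the log2 scale is likewise a description. It did not enter the fit against other CD4 T cells, where it averaged 19.0 CPM. The Foxp3+ T cells of αPD-1 + corin sample 1 held no Ccr4 UMI. For Ccr8 the order of levels in αPD-1 was Foxp3+ T cells, other CD4 T cells and CD8 T cells by group mean, with 132 ± 23.4, 40.7 ± 31.7 and 10.8 ± 2.67 CPM (SD, n = 3). Other CD4 and CD8 T cells overlapped, since αPD-1 sample 2 had 4.30 CPM in the first. In αPD-1 + corin the 3 means were 341 ± 82.3, 134 ± 90.2 and 12.0 ± 13.2 CPM, where all 3 other CD4 samples lay above all 3 CD8 samples.

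The share of Foxp3+ cells among T cells varied more with corin than without it, and no difference between treatments was shown. Foxp3+ cells made up 4.66%, 3.93% and 5.03% of T cells in αPD-1 and 10.1%, 16.2% and 1.13% in αPD-1 + corin, with means of 4.54% ± 0.56 and 9.14% ± 7.57 (exact permutation p = 0.4). αPD-1 + corin sample 3, with 1153 T cells of which 811 were CD8, lay under the αPD-1 range and the other 2 lay over it. In these sorted suspensions fewer Foxp3+ cells and a lower capture of them cannot be told apart.

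**Figure D5:**
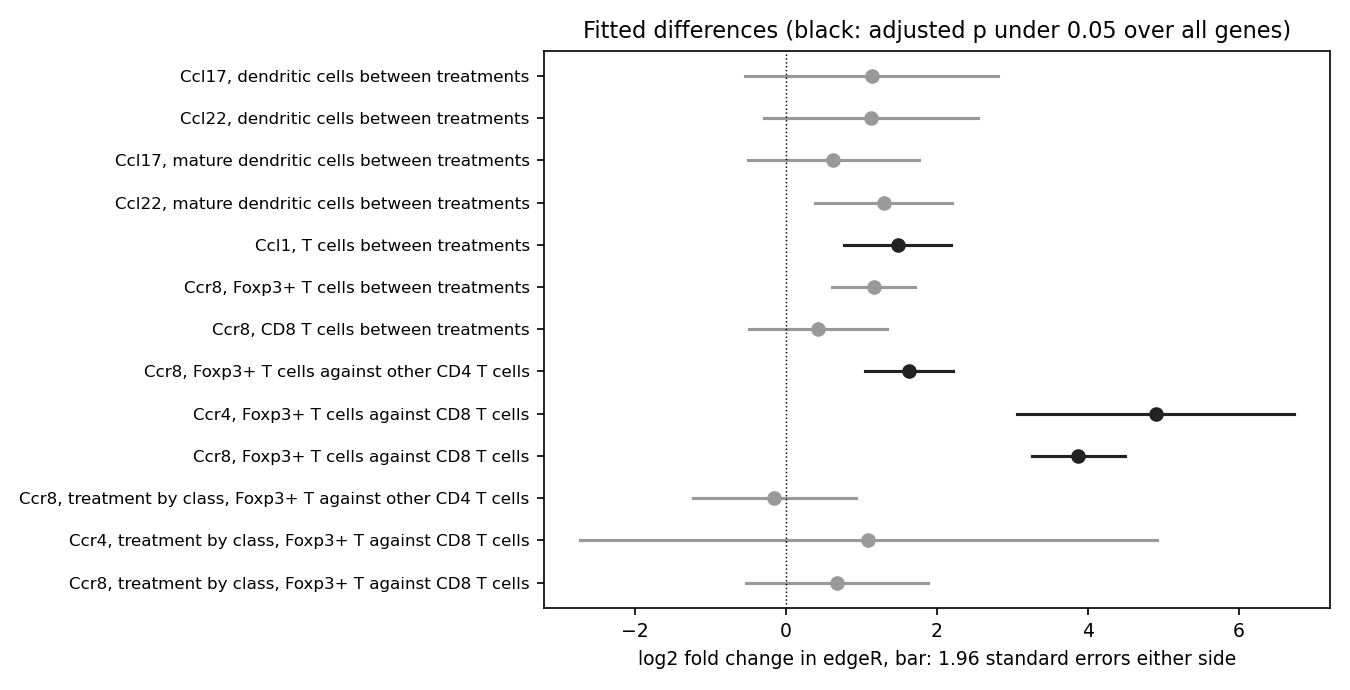
Each point is the edgeR log2 fold change of a gene in a comparison that it entered, with its 95% interval (from the standard error) as a bar, and black marks an adjusted p under 0.05. Ccl1 in T cells (1.48) and the class differences of Ccr8 (1.63 and 3.87) are black, and Ccr8 in Foxp3+ T cells between treatments (1.16) is grey. The black points of Ccr4 (4.90) and of Ccr8 against CD8 T cells (3.87) are descriptions, since both genes entered that fit only through Foxp3+ T cells.

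The other chemokine genes give the setting of these ligands. Among 18 tested of 32 other chemokine ligands in all DCs, none passed the edgeR test (5 at an unadjusted p under 0.05, 2 in DESeq2), and their median log2 fold change was 1.05 beside -0.0034 over all genes. In mature DC-like cells 2 of 12 were called higher and none lower, where 1.79% of all genes passed, with a median of 0.86 beside -0.018. Those 2 were Cxcl3, a ligand of the neutrophil receptor CXCR2, and Ccl6. Cxcl3 was at 0 CPM in the 3 αPD-1 samples and at 148 and 484 CPM in the αPD-1 + corin samples. Ccl6 was at 18.5 to 75.5 CPM against 547 and 179 CPM. Both passed the filter on low counts only through αPD-1 + corin, so the 2 calls are descriptions and not tests. Both αPD-1 + corin samples are those with the high neutrophil markers given above. In T cells 3 of 14 ligands rose and none fell (median 0.68 beside -0.00066), close to the 18.5% of all genes that passed there, namely Cxcl2 (2.16 ± 0.38), Xcl1 (0.97 ± 0.18) and Ccl5 (0.88 ± 0.27). Xcl1 attracts cross-presenting DCs. In CD8 T cells 0 of 11 ligands passed in edgeR, 4 had an unadjusted p under 0.05 and DESeq2 called 0.

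Ccl5 was also called in both CD4 classes. In Foxp3+ T cells it rose from 1033, 841 and 526 CPM in αPD-1 to 1387, 1449 and 4442 CPM in αPD-1 + corin (log2 fold change 1.52 ± 0.34, edgeR adjusted p = 0.0499), and it was 1 of 3 ligands tested there. In other CD4 T cells it rose by 2.66 ± 0.55 (0.00874). Ccl8, the other agonist of mouse Ccr8, was a macrophage gene, with 87.6% of its UMIs in monocyte/macrophage-like cells at 919, 668 and 608 CPM in αPD-1 and 2143, 2702 and 1213 CPM in αPD-1 + corin. The groups did not overlap, and no fit was made in these cells.

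Of other chemokine receptors, 2 of 10 tested in T cells rose and 1 fell (median 0.40 beside -0.00066), where 18.5% of all genes passed, with Ccr2, the receptor of monocyte chemokines, up by 1.13 ± 0.29 and Cxcr6, a receptor of tissue-resident T cells, up by 0.58 ± 0.19. The one that fell, Ccr9, a gut homing receptor, was under the level set for naming and was looked up after the count was seen (-2.47 ± 0.55, edgeR adjusted p = 0.00685, group means of 15.5 and 3.78 CPM). The same names, Ccr2 and Cxcr6, were called in other CD4 T cells, 2 of 4 tested beside 7.22% of all genes, at 2.40 ± 0.52 and 2.34 ± 0.51. The group means were 23.2 and 159 CPM for Ccr2 and 42.3 and 296 CPM for Cxcr6. Both passed the filter on low counts there only through αPD-1 + corin, so these 2 calls are descriptions and not tests. In Foxp3+ T cells 0 of 4 passed in edgeR, 0 had an unadjusted p under 0.05 and DESeq2 called 0. Between classes Ccr2 was higher in Foxp3+ T cells than in other CD4 T cells (1.68 ± 0.37) and CD8 T cells (2.05 ± 0.29), and Cxcr6 was lower (-1.27 ± 0.41 and -2.64 ± 0.22).

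Genes of Treg activation and suppression were higher in Foxp3+ T cells, the class with most Ccr8 per UMI. Against other CD4 T cells 12 of 17 tested were higher in Foxp3+ T cells and none was lower, beside 11.7% of all genes called, with a median log2 fold change of 1.55 beside -0.019 over all genes. Some of them passed the filter on low counts only through Foxp3+ T cells and so could only come out higher. Examples are Klrg1, at 12.2 CPM in other CD4 T cells and 163 in Foxp3+ T cells, and Itgae, at 5.32 and 74.5 CPM. Ikzf2, which encodes the Treg factor Helios, was higher by 2.07 ± 0.18, Tnfrsf4, a costimulatory receptor, by 1.97 ± 0.21, and Il2ra, the high-affinity interleukin-2 receptor chain, by 1.94 ± 0.29. Against CD8 T cells 15 of 19 were higher and 2, the checkpoint receptors Havcr2 and Lag3, were lower, beside 16% of all genes called. Genes low in CD8 T cells can enter that fit in the same way, so both counts are descriptions. Between treatments, 0 of 17 passed in Foxp3+ T cells (edgeR, 2 at an unadjusted p under 0.05, 0 in DESeq2, median 0.23 beside -0.014). In other CD4 T cells 4 of 9 rose and none fell (median 0.86 beside -0.024), where 7.22% of all genes passed. These were Tnfrsf9 (1.91 ± 0.38), Tnfrsf18 (1.46 ± 0.35), Icos (1.12 ± 0.28) and Tnfrsf4 (1.01 ± 0.30), which encode receptors that activated T cells carry. In all T cells, where 18.5% of all genes passed, 8 of 22 rose, led by Il2ra (1.14 ± 0.24), and 2 fell, namely Itgae (-2.10 ± 0.25), an integrin of tissue retention, and Nt5e (-0.85 ± 0.27), an ectoenzyme that makes adenosine.

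The known inducers of Ccl17 and Ccl22, among them interleukin-4 and GM-CSF with their receptors and STAT factors, gave no call in DCs. None of 10 tested passed in all DCs (edgeR, 3 at an unadjusted p under 0.05, 0 in DESeq2), with a median log2 fold change of 0.039 beside -0.0034, and none of 7 passed in mature DC-like cells (0 and 0, median 0.30 beside -0.018). In T cells 2 of 9 fell, namely Il4ra (-0.74 ± 0.17) and Stat5b (-0.70 ± 0.14), and none rose, a share close to the 18.5% of all genes that passed there.

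Patterns over classes set the members side by side. Over 86 sums of sample and class in 15 classes, with log2 of CPM plus 5, Ccl17 was most like Ccl22 among 14166 genes (Pearson r = 0.89), followed by Mmp25 (0.87) and Ehf (0.84). Ccl22 was most like Ccl17, Mmp25 (0.88) and Nudt17 (0.86), the last a marker used to name mature DCs. Ccr8 was most like Sdf4 (0.86), Ikzf2 (0.85) and Icos (0.84), and Ccr4 was most like Izumo1r (0.79), Gm28942 (0.78) and Ccr8 (0.77). Ccl1 had lower values, with AI847159 (0.72), Nrgn (0.72) and Gm17745 (0.71). Between ligand and receptor the values were low, at 0.26 for Ccl1 with Ccr8 and -0.05 and -0.08 for Ccr4 with Ccl17 and Ccl22. Sums of 1 sample share its library and depth, so these values are descriptions.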

How the data were processed

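CD45+ cells from B16-F10 tumors were profiled by 5′ droplet single-cell RNA sequencing in 3 αPD-1 and 3 αPD-1 + corin samples. The authors deposited raw UMI counts per gene and barcode, made with Cell Ranger 8.0 and read into Seurat 5.0.11 per the submitters' processing notes, which name GRCm39. The 32285 genes carry no coordinates in the files, and those printed come from GENCODE on GRCm39.

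Barcodes were kept if they had 600 to 4000 genes and no more than 10% of UMIs from mitochondrial genes, and 2002 expected doublets were removed. Cells were clustered in Seurat 5.3.0 (SCTransform, 3000 variable genes without chemokine genes and markers, 20 components, resolution 0.8). A cluster was named from at least 3 markers, each detected in 10% of its cells and 1.5-fold over the rest, a rule set after the data were seen. Clusters with at least 4 T cell markers and the markers of another lineage were called mixed. UMIs were summed per sample and class, and classes of under 10 cells in a sample were left out of fits. Sums were fitted over all genes with edgeR 4.0.16 (TMM, filterByExpr, quasi-likelihood test, Benjamini-Hochberg adjustment, threshold 0.05) in R 4.3.3, with DESeq2 1.42.0 as an alternative. The edgeR script was tested on simulated data. To compare the share of cells that held a gene, cells were thinned to 1000 UMIs and the samples' shares entered an exact two-sided permutation test. Intervals of single shares are 95% exact binomial ones. Upper limits for a count of 0 were set at 3 counts. The upper limit on genes left out 8248 barcodes, which held 14.7% of Ccl17, 18.2% of Ccl22, 36.4% of Ccl1, 36.3% of Ccr4 and 44.6% of Ccr8 UMIs.

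The 5 genes and the gene lists were chosen with earlier results of these data known. From each list, called genes could be named if the higher group reached 20 CPM, up to 5 with the largest rise and 5 with the largest fall, and Ccl8 was named after its values were seen. Replicate numbers in the titles were not taken to pair samples, since no label ties them and the deviations of same-numbered samples did not correlate above 0.1 in every pair of any comparison with 3 pairs.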

Additional observations from a re-analysis of the deposited data

Results flagged for a closer look

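The members also gave UMIs in cells that no comparison used, above the highest αPD-1 sample of the same cells or, where αPD-1 had none, above what a count of 0 allows there. None of these differences was tested. In NK-like cells Ccl1 averaged 165 CPM over the pooled αPD-1 + corin cells, with 97 UMIs in 6 of 253 cells, while the highest αPD-1 sample had 41.1 CPM and all αPD-1 samples 9 UMIs in 185 cells. The αPD-1 + corin samples had 542, 13.2 and 131 CPM, so sample 2 lay inside the αPD-1 range. In neutrophil-like cells Ccl22 was at 44.4 CPM with corin, from 293 UMIs in 45 of 1753 cells, and the 52 αPD-1 cells had none, which allows up to 17.0 CPM. αPD-1 + corin samples 1 and 2 had 18.2 and 57.0 CPM and sample 3 had none.

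Among clusters of the DC pool that were led by other lineages, those led by monocyte/macrophage markers had 22.2 CPM of Ccl22 with corin against at most 6.75 CPM in αPD-1, and 13.8 CPM of Ccl17 against at most 8.99 CPM. For Ccl22 αPD-1 + corin sample 3, at 4.47 CPM, and for Ccl17 sample 1, at 7.21 CPM, lay inside the αPD-1 range. The cluster led by T cell markers had 26.7 CPM of Ccl22 with corin against at most 18.9 CPM, and αPD-1 + corin sample 1 alone carried it, with 26 of the 30 UMIs (121 CPM, beside 0 and 5.17 CPM). Fibroblast-like cells had 3.43 CPM of Ccl22 with corin, from 22 UMIs in 4 of 836 cells, all of sample 1, and αPD-1 had none, which allows up to 2.35 CPM. In endothelial-like cells Ccl1 was at 32.6 CPM with corin, where all 21 UMIs came from 1 cell, and αPD-1 had none, which allows up to 7.18 CPM. In the clusters with markers of T cells and another lineage, Ccl1 was at 28.7 CPM with corin against at most 22.9 CPM, and Ccr8 at 14.7 CPM against at most 13.3 CPM. Sample 2 alone lay well above αPD-1 for Ccr8, with 7.36, 30.6 and 10.3 CPM in the 3 αPD-1 + corin samples, and for Ccl1 they had 2.45, 54.1 and 23.7 CPM. In monocyte/macrophage-like cells Ccr8 was at 1.18 CPM with corin against at most 1.14 CPM, from 36 and 13 UMIs, and the αPD-1 + corin samples had 0.584, 2.93 and 1.03 CPM, where sample 2 alone lay above αPD-1.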

How the results depend on the processing

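The log2 fold changes of the 5 genes were fitted again with DESeq2, with RLE size factors, without the low-count filter, with other limits on genes, doublets and mitochondrial UMIs, LogNormalize, resolution 1.2, cells with markers of another lineage left out, the replicate number as a block and each sample left out. The class differences of Ccr8 kept their direction in every one of these fits that gave a value. The one against other CD4 T cells passed the threshold in each, and the one against CD8 T cells is a description. Ccr8 in Foxp3+ T cells stayed between 1.03 and 1.40, with edgeR adjusted p from 0.0135 (the block) to 0.361 and 0.472 in DESeq2. Ccl1 in T cells was lost in DESeq2 (1.31, adjusted p = 0.244), without αPD-1 + corin sample 3 (1.23, 0.0572 in edgeR), and without its top cell (0.99, 0.0814 in edgeR), an alternative chosen after the data were seen. Leaving out 1 sample gave 1.05 to 2.01. With no filter, edgeR called Ccl17 (1.19) and Ccl22 (1.18) in all DCs and Ccl22 in mature DC-like cells (1.52). Ccl22 in mature DC-like cells also passed without cells of other lineages (1.19, with αPD-1 sample 3 alone in its group) and without αPD-1 + corin sample 1 (sample 2 alone in its group), each lone sample assumed to vary like the others, and ranged from 0.90 to 1.74 with a sample left out. Ccl17 in mature DC-like cells turned to -0.39 (edgeR adjusted p = 0.713) with no upper limit on genes and rose by 2.98 (0.0463) under LogNormalize, each from 4 samples. Ccr8 in CD8 T cells ranged from -0.12 to 1.02, turning without αPD-1 + corin sample 2. The cause of these shifts was not tested.

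Same-numbered samples did not pair by the labels. With the replicate block, Ccr8 in Foxp3+ T cells passed (1.29, edgeR adjusted p = 0.0135, 32 genes called in place of 13), and so did Ccl22 in mature DC-like cells (1.99, 0.000227, 87 in place of 38). In Foxp3+ T cells the same-numbered samples correlated at 0.026 to 0.040, and 6 of 6 samples correlated best with their own number. In mature DC-like cells the 2 pairs correlated at 0.211 and 0.141, and 4 of 5 samples correlated best with their own number. No other call on the 5 genes changed under the block.

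The share of mature cells among DCs, 1.87 percentage points lower with corin, turned to 3.17 higher with no upper limit on genes, 1.27 with a mitochondrial limit of 5% and 0.0133 under LogNormalize, and ranged from -7.11 to 4.14 points with a sample left out, turning without αPD-1 sample 3 (0.46) or αPD-1 + corin sample 3. With a sample left out, the thinned share with Ccl22 ranged from -0.868 to 6.91 points in all DCs (turning without αPD-1 sample 2 or αPD-1 + corin sample 2) and from -1.77 to 22.9 in mature DC-like cells (αPD-1 sample 2). The share with Ccr4 ranged from -1.29 to 0.789 in other CD4 T cells (αPD-1 sample 1, αPD-1 + corin sample 2) and from -0.184 to 0.0823 in CD8 T cells (αPD-1 sample 2), and that with Ccr8 in CD8 T cells from -0.21 to 0.547 (αPD-1 sample 2, αPD-1 + corin samples 2 and 3).

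Genes called ranged from 0 (no upper limit on genes) to 390 (no filter) for 5 in all DCs, with 37 in DESeq2, from 7 (without αPD-1 sample 3) to 208 (no filter) for 38 in mature DC-like cells, and from 576 (no upper limit) to 2119 (no filter) for 1825 in T cells, with 1075 in DESeq2. They ranged from 0 (clusters named Treg in place of the Foxp3 gate) to 32 for 13 in Foxp3+ T cells, with 2 in DESeq2, from 75 (without αPD-1 sample 1) to 226 for 147 in other CD4 T cells, with 93 in DESeq2, and from 153 (no upper limit) to 904 for 536 in CD8 T cells, with 254 in DESeq2. Against other CD4 T cells they ranged from 157 (without αPD-1 sample 1) to 483 for 380, with 183 in DESeq2, and against CD8 T cells from 219 (other lineages left out) to 1219 for 650, with 522 in DESeq2. Without cells of other lineages, Ccl1 in T cells and Ccr8 in each T cell class did not pass the filter and have no value.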
